A study of Mus musculus with 8 samples.

Results

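The cells described here are blood stem and progenitor cells of mouse bone marrow that carried the most and the least Sca1 on their surface within the LSK gate, the marrow fraction that is sorted as positive for Sca1 and for the receptor cKit. Cells were chosen by the Sca1 fluorescence that the sorter recorded: cells of each of 8 plates were ranked by it, and the highest tercile of a plate was set against its lowest. This gave 903 Sca1-high cells and 903 Sca1-low cells among 2715 cells kept, with 112 or 113 of each on every plate, and 909 cells lay between them. All cells, Sca1-high and Sca1-low alike, are labelled as coming from Dach1 reporter (Dach1-GFP) mice, and the labels give ages of 8 to 16 weeks for the strains of the study and name no treatment of the animals. These mice carry the Dach1bio-GFP locus, in which the endogenous Dach1 gene ends in a biotin tag and is followed by GFP on the same transcript. The locus comes from 1 targeted clone of C57BL/6 embryonic stem cells, and chimeras were bred to C57BL/6 mice and then to Flpe mice, which removed the resistance cassette. Marrow was first enriched with magnetic beads against cKit, so cells with little cKit may be under-represented in both groups. No label ties a plate to an animal. The p-values therefore reflect how much the difference between the groups varies from plate to plate, some of which may be technical.

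Sca1 is a small protein of the Ly6 family, encoded by Ly6a and held on the outer membrane by a glycosylphosphatidylinositol (GPI) anchor. In mice it is used to separate stem cells and multipotent progenitors from the more mature myeloid and erythroid progenitors, which mostly lack it. Interferons are known to raise Ly6a RNA and surface Sca1 in mouse blood progenitors. Within the LSK gate every cell has been sorted as Sca1-positive, so the comparison is between degrees of a positive signal.

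RNA was read by CEL-seq2, which copies the 3' end of polyadenylated RNA of each sorted cell with a cell barcode, and the deposited tables give 1 whole count per gene and well. The plates fall by name into an LC set (replicates 1 to 4) and an LCE set (replicates 5 to 8). Kept counts per plate ranged from 2093860 to 5192543. Median counts per cell were 11586 to 13398 on LC plates and 5625.5 to 7525 on LCE plates. Counts of all cells of a group were summed on each plate, and levels are given as CPM, the counts divided by that sum and scaled to 1e+06. As the markers of the gate ask, Kit was present in both groups on every plate, at 186 to 273 CPM in Sca1-high and 187 to 259 CPM in Sca1-low cells, and Ly6a at the levels given next.

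The fluorescence that chose the cells was 3.67 to 6.66 times as high at the median of the Sca1-high as at the median of the Sca1-low cells of the same plate. Plate medians were 7953 to 11238 fluorescence units in Sca1-high and 1209 to 2365 in Sca1-low cells. The dimmest Sca1-high cell of a plate had 4799 to 7374 units, and the brightest cell left out just below it had 4711 to 7329. At the other border, the brightest Sca1-low cell had 1822 to 3423 units and the dimmest cell left out just above it 1840 to 3440. Sca1 values formed a continuous range, so cells on both sides of a border were alike in Sca1. These values are a description of the rule and were not tested.

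Ly6a, the gene of Sca1, was higher in Sca1-high cells on each of the 8 plates. On LC plates Ly6a was 110.3, 105, 115 and 138 CPM in Sca1-high cells of replicates 1 to 4, against 31.8, 22.3, 19.03 and 23.9 CPM in their Sca1-low cells. On LCE plates it was 124, 128, 109 and 101 CPM in Sca1-high cells of replicates 5 to 8, against 41.1, 53.2, 36.4 and 17.7 CPM in Sca1-low cells. The groups did not overlap: the lowest Sca1-high value was above the highest Sca1-low value. In such sums alone, fewer cells with a transcript and less of it per cell cannot be told apart. A Ly6a count was found in 41 to 70 Sca1-high and 13 to 38 Sca1-low cells of a plate, and in more Sca1-high cells on each plate. The mean log2 ratio was 1.98 ± 0.50 (SD, n = 8 plates, exact sign-flip p = 0.0078, the smallest that 8 plates can give), 2.24 on LC and 1.71 on LCE plates. Cells in between had 32.0 to 69.2 CPM. Cell by cell the link was weaker: the Spearman correlation of Sca1 fluorescence with Ly6a counts was 0.219 to 0.348 within a plate (336 to 341 cells each, a description, since cells of a plate share 1 library and differ in depth).

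**Figure D1:**
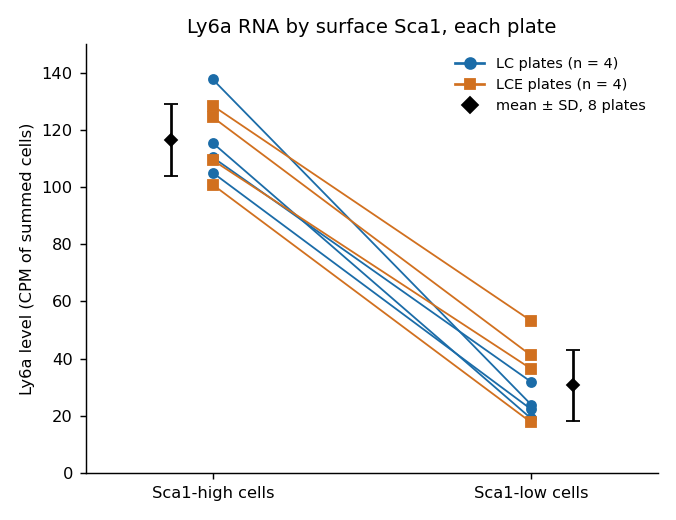
Level of Ly6a RNA (vertical axis, CPM of the summed cells) in Sca1-high and Sca1-low cells of each plate. Lines join the groups of 1 plate, circles are LC and squares LCE plates, and diamonds with bars are the mean ± SD over 8 plates; every Sca1-high value (101 to 138 CPM) is above every Sca1-low value (17.7 to 53.2 CPM).

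Across all genes, 1212 of the 10165 tested passed an adjusted p of 0.05 in edgeR's quasi-likelihood test with plate as a block (Benjamini-Hochberg adjustment), which is 11.9% of the genes tested. Of these, 573 were higher (5.64%) and 639 lower (6.29%) in Sca1-high cells, and the median of all tested genes was 0.00 on the log2 scale. Counts of list members called over all plates are to be set against these shares. A gene called higher or lower below passed this test, its log2 difference (Sca1-high over Sca1-low) is given ± the standard error of the fit, and no cut on size was made. In 9 genes the plate values of Sca1-high cells all lay above those of Sca1-low cells (0.0885% of tested genes), and in 10 they all lay below (0.0984%). The 12 genes with the largest rise among those higher on 8 of 8 plates and at 10 CPM or more on average were Oas2, Ly6a, Sema3d, Iigp1, Hacd4, Gas6, Ddx4, Dok2, Hlf, Shisa8, Ifi44 and Crispld1. The 12 with the largest fall were Gata1, Cd79a, Ebf1, Anxa3, Cpa3, Gfi1b, Ap3s1, Ms4a3, Irf8, Selp, Cd55 and Blvrb. Among the first are interferon-induced genes and stem cell genes, and among the second genes of the erythroid, B lymphoid, mast cell and myeloid lineages, which are taken up by group below. The call of Crispld1 rested on replicate 4, without which it was 0.74 with an adjusted p of 0.066 in edgeR.

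Sca1-high cells also gave fewer counts per cell. Median counts per cell were 8462 ± 3021 in Sca1-high and 10560.2 ± 3991 in Sca1-low cells (SD, n = 8 plates), lower on 8 of 8 plates by a mean ratio of 0.808 (exact sign-flip p = 0.0078, adjusted p = 0.0117 over 3 measures). Genes detected per cell were 3026 ± 587 and 3449 ± 689 in the same order, with the same p. The mitochondrial share of counts was 5.06% ± 0.83 in Sca1-high and 4.98% ± 0.94 in Sca1-low cells (adjusted exact p = 0.19). With each cell thinned to 3000 counts, 5362 genes could be tested and 212 were called, 195 of them called in the same direction with all counts and none in the opposite one.

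The other proteins recorded by the sorter differed between the groups as well. Because fluorescence can be negative, cells were ranked within their plate and the median percentile of each group was compared by an exact sign-flip test over plates, adjusted over 11 measurements. CD135, the FLT3 receptor carried by multipotent and lymphoid-primed progenitors, had a median percentile of 65.1 in Sca1-high and 36.1 in Sca1-low cells, a difference of 29.0 ± 5.09 percentage points (SD, n = 8, exact adjusted p = 0.0215, higher on 8 of 8 plates). CD150, a SLAM family receptor of long-term stem cells and of the platelet and red cell branch, was at 38.9 in Sca1-high and 60.6 in Sca1-low cells, a difference of -21.8 ± 10.9 (exact adjusted p = 0.0344), lower on 7 of 8 plates. Replicate 4 was the exception, and leaving out any other plate raised the exact adjusted p to between 0.057 and 0.069. cKit, the receptor for stem cell factor, was lower on 8 of 8 plates, at percentile 43.5 in Sca1-high and 58.8 in Sca1-low cells (exact adjusted p = 0.0215). IL7R, the interleukin-7 receptor, differed by -7.76 percentage points with the same sign on 8 of 8 plates (exact adjusted p = 0.0215).

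CD11b, an integrin subunit of myeloid cells, followed Sca1 as closely as CD135 did, at percentile 68.7 in Sca1-high and 39.4 in Sca1-low cells (difference 29.3 ± 5.46, exact adjusted p = 0.0215, higher on 8 of 8 plates). Its RNA did not pass the test: Itgam had a median over plates of 18.3 CPM in Sca1-high and 16.7 CPM in Sca1-low cells, a log2 difference of 0.37 ± 0.21 (edgeR adjusted p = 0.26). Within plates CD11b fluorescence and Itgam counts had a Spearman correlation of 0.00228 to 0.0991, the lowest median of the 9 proteins paired with a transcript. Dach1-GFP differed by -5.62 percentage points between Sca1-high and Sca1-low cells (exact adjusted p = 0.0573), and the RNA of Dach1 fell by 0.47 ± 0.15 (edgeR adjusted p = 0.029), a call that was lost without replicate 1, 2, 4 or 8 (adjusted p = 0.064, 0.073, 0.11 and 0.055). CD48, a SLAM family protein that long-term stem cells lack, was recorded on LCE plates alone, at percentile 32.7 in Sca1-high and 63.2 in Sca1-low cells, lower on 4 of 4 plates, where an exact p cannot go below 0.125. Its transcript Cd48 fell by 0.38 ± 0.08 over all 8 plates (edgeR adjusted p = 0.00053). PIR-A differed by 11.4 percentage points and forward scatter, a measure of cell size, by -7.32, each with the same sign on 4 of 4 plates.

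**Figure D2:**
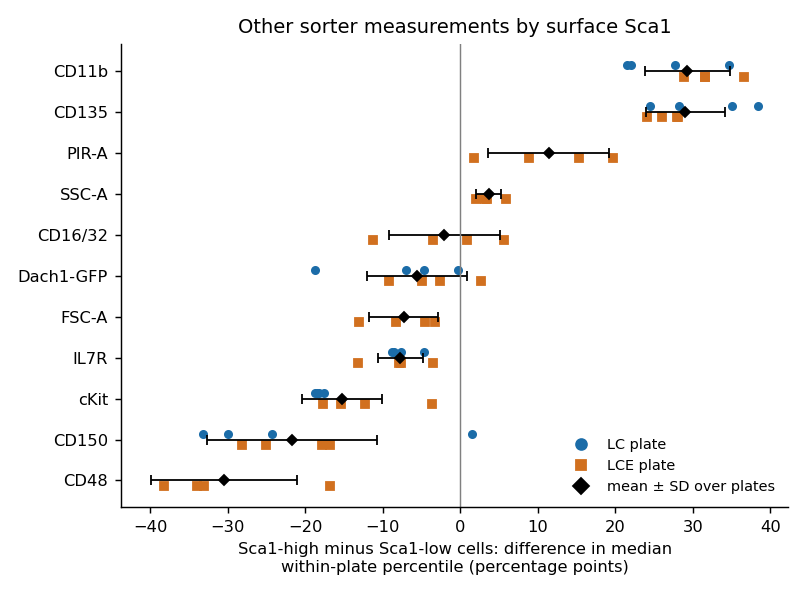
Difference between Sca1-high and Sca1-low cells in the median within-plate percentile (horizontal axis, percentage points) of each other sorter measurement. Each circle (LC) or square (LCE) is 1 plate and each diamond with bar the mean ± SD over plates; CD11b and CD135 lie near 29 above and CD48 near -30.5, and cKit and IL7R lie below 0 on all 8 plates.

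Of the other genes of the Ly6 cluster, none passed the test over all plates. Of 7 tested genes of the cluster and its relatives, Ly6a alone was called, against 11.9% of all tested genes in either direction. On LC plates alone 2 of 8 were called higher and 0 lower, and on LCE plates 1 of 4 higher and 1 lower. Of all tested genes, 7.13% were called in either direction on LC and 3.03% on LCE plates. With Sca1 corrected for 4 other proteins, which called 711 genes in all, 2 of 5 were higher and 0 lower. Ly6e, a family member expressed in most blood cells, was the most abundant of those named, with 530.1 to 751 CPM in Sca1-high and 568 to 712 CPM in Sca1-low cells and a log2 difference of -0.07 ± 0.04 (edgeR adjusted p = 0.25). Ly6i was 0.64 ± 0.29 (adjusted p = 0.15) and Ly6d, a marker of early B lineage commitment, -0.60 ± 0.32 (adjusted p = 0.24), both with overlapping plate values. Ly6c2 was -0.09 over all plates (adjusted p = 0.77). Its Sca1 effect was -1.33 in CD150-high and 0.47 in CD150-low cells (edgeR adjusted p of the interaction 0.00016). It was 0.64 in cKit-high and -0.79 in cKit-low cells (0.0037). Of 18 tested genes that make the GPI anchor or attach proteins to it, 1 was called: Gpaa1, a subunit of the transamidase that attaches the anchor, fell by 0.54 ± 0.14 (adjusted p = 0.006). Near-identical Ly6 genes could share counts, so their values are uncertain.

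Interferon-stimulated genes were higher in Sca1-high cells. Of 31 tested members of this list, 15 were called higher and 0 lower, against 5.64% and 6.29% of all tested genes, with a median log2 difference of 0.46. Oas2, an enzyme that senses double-stranded RNA, had 11.6, 18.003 and 29.9 CPM as its lowest, median and highest plate value in Sca1-high cells, against 2.20, 4.26 and 8.02 CPM in Sca1-low cells. The groups did not overlap, and the log2 difference was 2.07 ± 0.26 (edgeR adjusted p = 2e-08). Ifi27, an interferon-induced mitochondrial protein, also separated the groups completely, with 74.5, 93.7 and 107 CPM in Sca1-high and 50.4, 60.3 and 69.0 CPM in Sca1-low cells (0.64 ± 0.09, adjusted p = 6e-07). Ifitm1 and Ifitm3, membrane proteins that restrict virus entry, were more abundant and rose by 0.66 ± 0.05 and 0.63 ± 0.06, each higher on 8 of 8 plates. Rtp4, Ifi44 and Irf7, the last a regulator of the interferon response, rose by 0.96 ± 0.14, 1.24 ± 0.19 and 1.09 ± 0.26.

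Genes of the interferon gamma response and of antigen presentation by class I moved the same way, with 12 of 26 tested members called higher, 0 called lower and a median of 0.30. B2m, the light chain of class I molecules, had 1549, 1859.6 and 2747 CPM in Sca1-high and 1145, 1522 and 2183 CPM in Sca1-low cells. The plate ranges of B2m overlapped, but it was higher in Sca1-high cells on 8 of 8 plates (0.33 ± 0.03, edgeR adjusted p = 2.1e-14). H2-K1, a class I heavy chain, rose by 0.33 ± 0.03. Interferon-induced GTPases, which act against parasites inside cells, were among the larger rises: Iigp1 by 1.48 ± 0.24, Tgtp2 by 0.72 ± 0.09 and Irgm2 by 0.82 ± 0.18. The class II genes are described with the B lineage below.

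The promoters of called interferon genes are shown because they can be searched for a known sequence of interferon-induced genes, the interferon response element, searched as GAAA, any 2 bases and GAAA on both strands of the 300 bases around each start (250 before, 50 after, RefSeq, build GRCm38.p6). It was found in the promoters of 14 of the 26 genes of the interferon gamma and antigen presentation list with an entry, of 31 listed, against 1079 of all 27025 genes in the table (3.99%), or 3.44% of its 32851 promoters. Of the 27 called members of both interferon lists, 22 had an entry and 13 of these held it. Genes of 1 chromosome and genes whose matches lay far apart were not printed, so some with a smaller adjusted p may be missing. From the rest, the 5 with the smallest adjusted p and a match before the start are printed. Up to 30 bases are given on either side, 5' to 3' on the strand of the gene. Their matches are in capitals (a match on the other strand reads TTTC, any 2 bases and TTTC). They are B2m (chr2:122147518-122147587, plus strand), Tgtp2 (chr11:49064243-49064312, minus strand), Ifi203 (chr1:173942493-173942557, minus strand), Trim30a (chr7:104465194-104465259, minus strand) and Irgm2 (chr11:58214883-58214952, plus strand).
B2m: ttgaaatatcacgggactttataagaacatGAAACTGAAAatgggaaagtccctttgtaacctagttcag
Tgtp2: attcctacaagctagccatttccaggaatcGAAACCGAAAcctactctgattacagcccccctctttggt
Ifi203: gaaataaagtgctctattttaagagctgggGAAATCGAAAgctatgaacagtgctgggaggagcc
Trim30a: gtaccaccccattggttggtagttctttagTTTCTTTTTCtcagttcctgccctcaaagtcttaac
Irgm2: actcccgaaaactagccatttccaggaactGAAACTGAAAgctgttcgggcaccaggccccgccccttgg
Ifi203, of a family that senses DNA, had a log2 difference of 0.38 ± 0.06, and Trim30a, an interferon-induced protein of the TRIM family, one of 0.50 ± 0.10. The match lay 139 bases before the start in B2m and 35 in Ifi203. A match in letters describes the sequence and is no evidence that a factor was bound.

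Most stem cell genes were higher in Sca1-high cells. Of 21 tested members, 18 were called higher and 1 lower (Ifitm1 and Ifitm3, above, are also on this list), with a median log2 difference of 0.66, which was 0.65 without Ly6a. Hlf, a transcription factor that marks and maintains stem cells, had 265, 407.9 and 552 CPM as its lowest, median and highest plate value in Sca1-high cells, against 99.9, 162 and 294 CPM in Sca1-low cells. The ranges of Hlf overlapped between plates of different sets, while within each plate the Sca1-high cells were higher (1.29 ± 0.07, edgeR adjusted p = 5e-24). Mecom, a transcription factor needed for long-term stem cells, had 41.4, 55.7 and 65.1 CPM in Sca1-high and 15.8, 23.1 and 45.4 CPM in Sca1-low cells (1.18 ± 0.15). Meis1, a homeobox partner of HOX proteins, separated the groups, with 138 to 182 CPM in Sca1-high and 84.0 to 121 CPM in Sca1-low cells (0.68 ± 0.08). Nkx2-3 rose by 1.16 ± 0.17, Mllt3 by 0.88 ± 0.15 and Hoxa9 by 0.60 ± 0.10, all of them regulators of transcription. Among surface proteins of stem cells, Procr (EPCR) rose by 1.01 ± 0.20. Msi2, an RNA-binding protein of stem and progenitor cells outside the list, also separated the groups (328 to 441 CPM in Sca1-high and 191 to 320 CPM in Sca1-low cells). The member called lower was Apoe (-0.46 ± 0.12), a call lost without replicate 2 (-0.37, adjusted p = 0.053). Cd34, which long-term stem cells of adult mice lack, rose by 0.20 ± 0.05.

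CD135 protein, which long-term stem cells lack, was higher in Sca1-high cells together with the transcripts of these stem cell regulators, and CD150 protein was lower. Flt3, the gene of CD135, had 179.6, 237 and 329.7 CPM in Sca1-high and 85.1, 144 and 203 CPM in Sca1-low cells (0.83 ± 0.07, edgeR adjusted p = 1.1e-13). Slamf1, the gene of CD150, did not pass the filter on low counts, with at most 3.62 CPM in Sca1-high and 5.05 CPM in Sca1-low cells. Il7r did not pass it either.

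Most of the called lymphoid priming genes were higher. Of 22 tested members 11 were called higher and 2 lower, with a median of 0.30. On LC plates alone 11 of 21 were higher and 2 lower (median 0.46), and on LCE plates 4 of 22 higher and 3 lower (median 0.16). Of all tested genes, 7.13% were called in either direction on LC plates and 3.03% on LCE plates. The 11 include Ighm, whose call was lost without 4 cells rich in Jchain, as given below. Bcl11a, a transcription factor needed for lymphoid development, rose by 0.39 ± 0.05 and was higher on 8 of 8 plates. Dntt, the polymerase that adds bases at antigen receptor joints and one of the earliest lymphoid transcripts, was not called over all plates (0.22 ± 0.10, edgeR adjusted p = 0.14) and differed between the plate sets, as given below. Among the members called lower was Ebf1, a factor of B lineage commitment, which fell by 1.67 ± 0.21. Lck, a kinase of T cells, was the 1 called of 5 tested genes of T, NK and innate lymphoid cells and rose by 0.90 ± 0.20. Of 19 genes of that list in the count tables, 2 (Cd3g and Ncr1) had no count in Sca1-high or Sca1-low cells, and the others had counts. The summed level of that list was 131 to 207 CPM in Sca1-high and 155 to 186 CPM in Sca1-low cells.

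Genes of granulocytes and monocytes were lower in Sca1-high cells. Of 24 tested members 14 were called lower and 2 higher, with a median of -0.63, and the summed level of the list was lower on 8 of 8 plates, with medians of 4164 CPM in Sca1-high and 5915 CPM in Sca1-low cells. Mpo, the myeloperoxidase of granules, had 97.7, 404 and 1018 CPM in Sca1-high and 169, 841 and 1735 CPM in Sca1-low cells. Levels of Mpo were high on LC and low on LCE plates in both groups, so the ranges overlapped, but within each of the 8 plates Sca1-high cells had less (-0.96 ± 0.05, edgeR adjusted p = 6e-24). The granule proteases Ctsg, Prtn3 and Elane fell by 0.94 ± 0.07, 0.75 ± 0.05 and 0.83 ± 0.09. Cebpa, the transcription factor that directs myeloid commitment, fell by 0.79 ± 0.16. Irf8, a factor of monocytes, dendritic cells and early lymphoid progenitors, separated the groups, with 26.2, 43.1 and 57.8 CPM in Sca1-high and 62.8, 83.8 and 176 CPM in Sca1-low cells (-1.26 ± 0.11, adjusted p = 2.6e-14). Of 7 tested dendritic cell genes 3 were called lower and 1, Tcf4, higher (0.24 ± 0.06). Of 5 tested macrophage genes 1 was called, the iron exporter Slc40a1, which fell by 1.32 ± 0.29, and the defining marker C1qc was 0.15 ± 0.25.

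Over all plates, erythroid genes were lower where they were called. Of 15 tested members 9 were called lower and 0 higher, with a median of -0.90. Leaving out 1 plate gave medians from -1.07 to -0.27. The median was -0.27 without replicate 2, -0.30 without replicate 7, and -0.41, -0.44 and -0.39 without replicates 1, 3 and 5. On LC plates alone 11 of 18 were lower and 0 higher, and on LCE plates 3 of 11 lower and 1 higher. Of all tested genes, 7.13% were called on LC and 3.03% on LCE plates in either direction. The summed level of the list was higher in Sca1-high cells on 2 of 8 plates. Gata1, the main transcription factor of red cell and platelet precursors, had 0, 3.35 and 11.3 CPM in Sca1-high and 3.71, 15.1 and 47.4 CPM in Sca1-low cells, lower on 8 of 8 plates (-2.12 ± 0.30, edgeR adjusted p = 3.4e-07). Car1, a carbonic anhydrase of early red cell precursors, had a median over plates of 14.9 CPM in Sca1-high and 87.0 CPM in Sca1-low cells and no count in either group of replicate 8 (-2.48 ± 0.14). Blvrb and Cpox, enzymes of haem handling, and Tfrc, the transferrin receptor, fell by 1.13 ± 0.19, 1.02 ± 0.15 and 0.90 ± 0.15. Counts of these genes came from few cells: 1 cell held 9.88% of all Gata1 counts and 8.81% of those of Car1. With cells thinned to 3000 counts, 6 of the list could be tested, none of them was called lower, 1 was called higher and their median was 0.11. That fit called 115 genes higher and 97 lower in all. Megakaryocyte genes went both ways, with 2 of 9 called higher and 3 lower: Mmrn1, also expressed in stem cells, rose by 1.18 ± 0.22, and Selp (P-selectin) fell by 1.16 ± 0.26. Pf4, a platelet chemokine, was called lower (-1.49 ± 0.23), but 1 cell held 32.4% of its counts and it was lower on 6 of 8 plates. Of 7 mast cell and basophil genes, Cpa3 and Mcpt8, both proteases, fell by 1.33 ± 0.14 and 1.39 ± 0.29, and Kit rose by 0.17 ± 0.06, a call lost without replicate 1, 2, 3, 4 or 7 (adjusted p between 0.071 and 0.15).

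**Figure D3:**
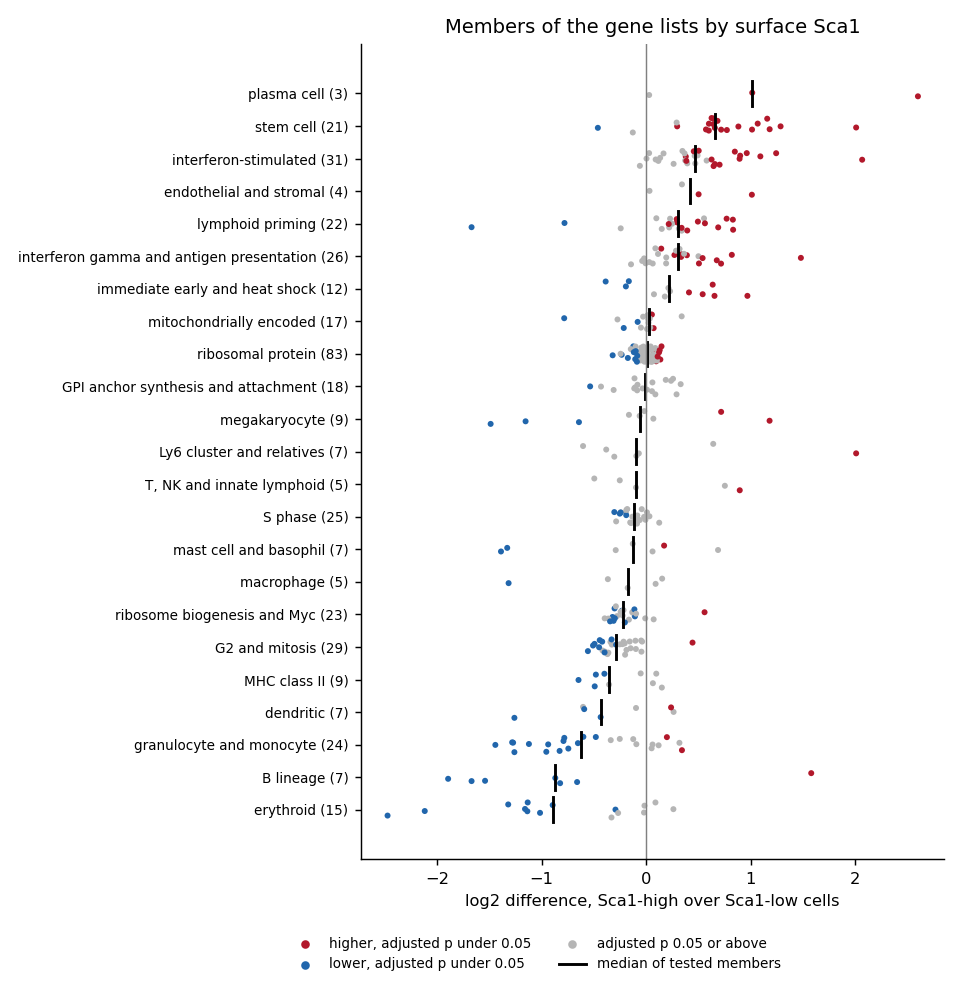
Log2 difference between Sca1-high and Sca1-low cells (horizontal axis) of every tested member of 23 gene lists, with the number tested in brackets. Each dot is a gene, red where called higher, blue where called lower and grey where not called, and the bar is the median; the stem cell (0.66) and interferon-stimulated (0.46) medians lie to the right and the erythroid (-0.90) and granulocyte and monocyte (-0.63) medians to the left.

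Of 7 tested B lineage genes 6 were called lower in Sca1-high cells and 1, the antibody light chain gene Igkc, higher. The summed level of the list, which Igkc enters, was higher in Sca1-high cells on 4 of 8 plates. Cd79a, the signalling chain of the B cell receptor, had 1.36, 6.75 and 12.6 CPM in Sca1-high and 4.78, 27.2 and 44.2 CPM in Sca1-low cells (-1.90 ± 0.25, edgeR adjusted p = 7.5e-08). Cells with a count in at least 3 of 10 B lineage genes numbered 21 among Sca1-high and 91 among Sca1-low cells. Without such cells 1145 genes were called in all, 1070 of them also called in the same direction with all cells; the B lineage list itself is not read there, since its own genes chose the cells left out. Of 9 class II genes 4 were called lower, among them H2-Eb1 (-0.65 ± 0.16) and Cd74, the invariant chain (-0.48 ± 0.14). On LCE plates alone 0 of 9 were called, against 3.03% of all tested genes in either direction. The direction turned with Sca1 corrected for 4 other proteins, where 2 of 8 were called higher and 0 lower. That fit called 352 genes higher and 359 lower in all. Cd74 was then 0.80 and H2-Aa 0.53 (edgeR adjusted p = 1.1e-05 and 0.0064). Without the B lineage cells 0 of 8 class II genes were called. The Cd74 call was also lost without replicate 2 (-0.34) or replicate 3 (-0.36).

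Counts of plasma cell transcripts lay in few cells. Jchain, which joins antibody molecules, had the largest log2 difference of all genes named here, 2.60 ± 0.16 (edgeR adjusted p = 7.4e-20). However, 1 cell held 29.2% of its counts and 10 cells held 70.1%, and it was higher on 5 of 8 plates. Sca1-high cells of replicates 2, 4, 5 and 6 each included 1 cell with at least 10 Jchain counts, and Sca1-low cells included none. Without such cells Igkc was -0.34 in place of 1.58 ± 0.20, and Ighm was 0.07 in place of 0.77 ± 0.12. Jchain itself is not read there, since its own counts chose the cells left out. Ighm was 0.50 without replicate 2 and 0.51 without replicate 4. Sdc1, a surface marker of plasma cells, was higher on 8 of 8 plates (1.01 ± 0.27) at 8.81 to 23.3 CPM in Sca1-high and 1.17 to 16.1 CPM in Sca1-low cells, and Xbp1 was not called (0.03 ± 0.11). The summed plasma cell list was 66.1 to 353 CPM in Sca1-high and 72.4 to 114 CPM in Sca1-low cells.

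Most of the called genes of cell division were lower in Sca1-high cells. Of 29 genes of G2 and mitosis 9 were called lower and 1, the kinesin Kif23, higher, with a median of -0.29. Hmgb2, a chromatin protein abundant in dividing cells, separated the groups, with 192, 257 and 289.6 CPM in Sca1-high and 295, 341 and 374 CPM in Sca1-low cells (-0.42 ± 0.05, edgeR adjusted p = 2e-08). Ube2c and Cenpa, which act in mitosis, fell by 0.50 ± 0.10 and 0.51 ± 0.10. Mki67, a common marker of cycling cells, was not called, with medians of 217 CPM in Sca1-high and 229 CPM in Sca1-low cells (-0.05 ± 0.06, adjusted p = 0.72). Of 25 S phase genes 4 were called lower, and each of these calls was lost on leaving out at least 3 of the 8 plates in turn. The call of Kif23 was lost without replicate 4 (0.34, adjusted p = 0.062).

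Genes of ribosome building and the Myc programme were lower where all plates and all counts were used. Of 23 tested members 9 were called lower and 1 higher, against 6.29% and 5.64% of all tested genes, with a median of -0.23. None was called on LCE plates alone (0 of 23, median -0.17) or with cells thinned to 3000 counts (0 of 20, median -0.15), and on LC plates 6 were lower and 1 higher. Of all tested genes, 3.03% were called in either direction on LCE plates and 7.13% on LC plates. With thinned cells 212 genes were called in all. Myc, which drives this programme, had 147, 174 and 195 CPM in Sca1-high and 184, 209 and 228 CPM in Sca1-low cells, lower on 8 of 8 plates (-0.31 ± 0.06, edgeR adjusted p = 0.00036). The nucleolar protein Nop56 and the polyamine enzyme Srm fell by 0.30 ± 0.06 and 0.35 ± 0.07. The member called higher was Mycn, a relative of Myc, by 0.56 ± 0.16, a call lost without replicate 1 (0.42, adjusted p = 0.093). Of 83 ribosomal protein genes 7 were called higher and 9 lower, against 5.64% and 6.29% of all tested genes, with a median of 0.01. Of 12 immediate early and heat shock genes, which respond to handling, 5 were called higher and 3 lower, against the same shares. Fos rose by 0.97 ± 0.20 and Jun by 0.65 ± 0.11, while the chaperones Hsp90aa1 and Hspa8 fell by 0.17 ± 0.03 and 0.19 ± 0.04. On LCE plates alone 0 of 10 genes of the list were called. There Fos had no count in either group of replicates 6, 7 and 8, and Jun was 0.09, against 0.71 on LC plates. The chaperones moved on LCE plates too. Hspa8 was 372, 301, 292 and 354 CPM in Sca1-high cells of replicates 5 to 8, against 397, 309, 365 and 386 CPM in Sca1-low cells. Hsp90aa1 was lower in Sca1-high cells of replicates 5, 7 and 8, but higher on replicate 6 (714 against 672 CPM). Col4a1 (1.01 ± 0.24) and Tie1 (0.50 ± 0.16) were the genes called, both higher, among 4 tested genes of endothelial and stromal cells, and the Tie1 call was lost without replicate 4 or 6 (adjusted p = 0.18 and 0.065), while Pecam1 and Emcn were 0.03 ± 0.13 and 0.34 ± 0.23 and not called. The summed level of that list was higher in Sca1-high cells on 8 of 8 plates, at 80.4 to 149.6 CPM against 70.3 to 129.9 CPM in Sca1-low cells. Its part in the other differences was not tested.

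With the cells between the groups brought in, the differences could be placed along the range of Sca1. Between the highest and the middle tercile 328 of 10840 genes were called (3.03%; 1.37% higher and 1.66% lower in the highest), and between the middle and the lowest 63 (0.581%; 0.304% higher and 0.277% lower in the middle). These contrasts share the middle cells. Stem cell genes rose at both steps: 6 of 24 tested members were called higher in the middle than in the lowest tercile and 12 of 24 higher in the highest than in the middle. Hlf averaged 175, 246 and 403 CPM and Oas2 4.97, 10.4 and 19.4 CPM in the lowest, middle and highest tercile. Of 26 granulocyte and monocyte genes 0 were called higher and 1 lower in the middle than in the lowest tercile, and 1 was called higher and 15 lower in the highest than in the middle. The plate sets differed in this: on LCE plates the summed list was already lower in the middle than in the lowest tercile on 4 of 4 plates (on replicate 7 it was 4105, 3231 and 2987 CPM from the lowest to the highest), and on LC plates on 1 of 4. Mpo averaged 886, 846 and 462 CPM from the lowest to the highest tercile. Of 18 erythroid genes 7 were called lower in the middle than in the lowest tercile (median -0.56), and 0 were called lower and 1 higher in the highest than in the middle, where the median was nearly as low (-0.50). Car1 averaged 83.2, 21.6 and 14.99 CPM in the same order. Whether 1 step was larger than the other was not tested.

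**Figure D4:**
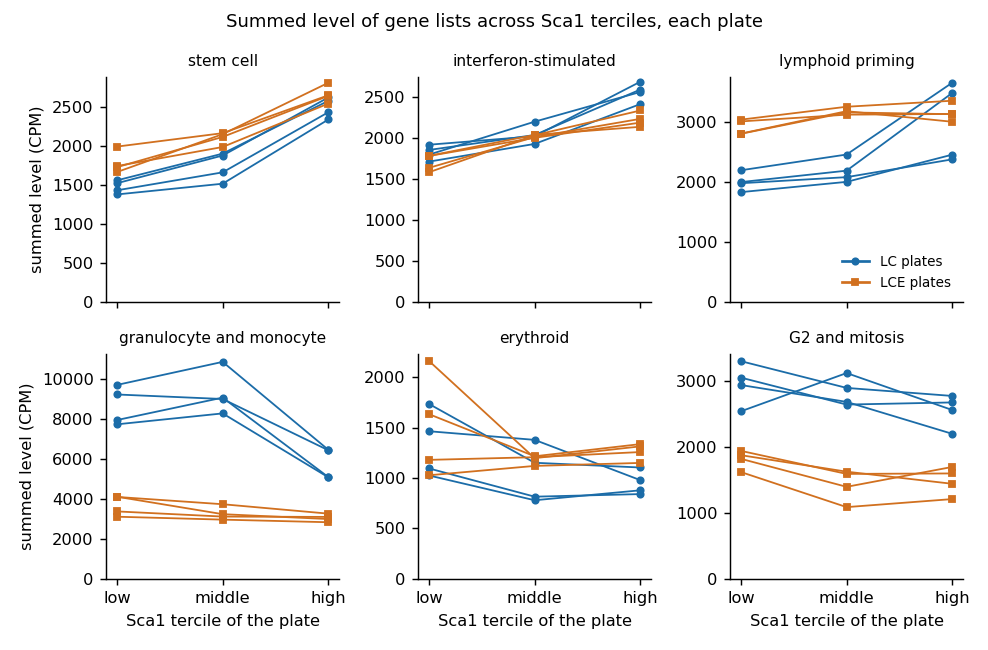
Summed level of 6 gene lists (vertical axis, CPM) in the lowest, middle and highest Sca1 tercile of each plate, circles for LC and squares for LCE plates. The stem cell sum had medians of 1610 CPM in the lowest, 1942 in the middle and 2597 in the highest tercile, and the granulocyte and monocyte sum had medians of 5915, 6000 and 4164, over LC and LCE plates that lie apart in that panel at every tercile.

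The plate sets were compared next, since LC and LCE plates differ in depth and in the spread of Sca1. Fitted alone, LC plates gave 818 called genes (7.13% of those tested) and LCE plates 272 (3.03%). Of the 1212 genes called over all plates, 688 were also called on LC and 233 on LCE plates, and none was called in the opposite direction. In a joint fit, the Sca1 difference itself differed between the sets for 15 of 10165 genes (0.148%), and 12 of these (0.118%) had the more negative difference on LCE plates. Dntt was higher in Sca1-high cells of LC plates (0.82) and lower in those of LCE plates (-0.37), a difference between sets of -1.19 (edgeR adjusted p = 6.4e-10). On LC plates Dntt was 112 to 242 CPM in Sca1-high and 73.3 to 129 CPM in Sca1-low cells, and on LCE plates 202 to 284 CPM in Sca1-high and 297 to 337 CPM in Sca1-low cells. Hlf was higher in both sets but less so on LCE plates (1.57 on LC and 0.99 on LCE plates, adjusted p of the difference 0.0029). Flt3 followed the same pattern (1.09 and 0.54, adjusted p = 0.049). The stem cell and interferon-stimulated medians were 0.82 and 0.55 on LC and 0.49 and 0.31 on LCE plates, and granulocyte and monocyte genes -0.67 on LC and -0.42 on LCE plates. The number of calls on LCE plates was 140 without replicate 5, 280 without replicate 6, 101 without replicate 7 and 159 without replicate 8, and that on LC plates was 512 without replicate 1.

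**Figure D5:**
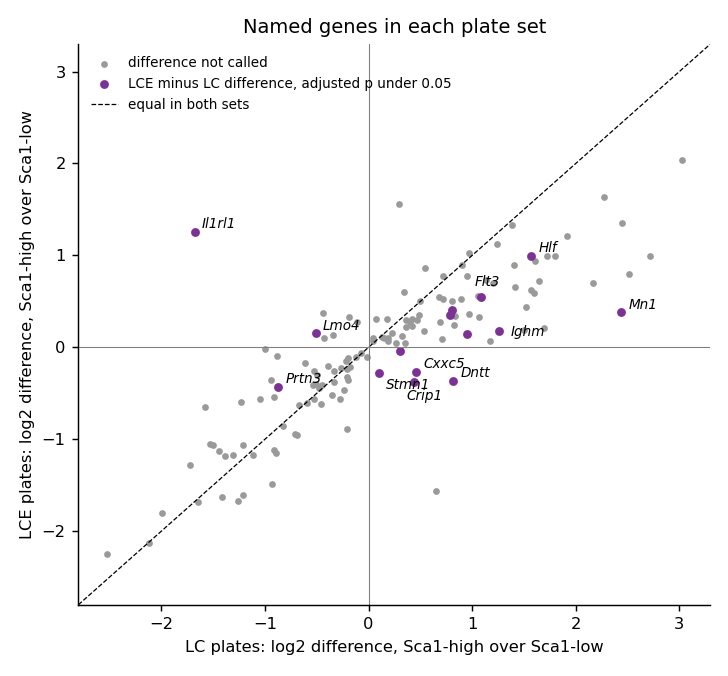
Log2 difference between Sca1-high and Sca1-low cells of the genes named by rule or in the text, on LC plates (horizontal axis) and LCE plates (vertical axis), from the joint fit. Each dot is a gene, purple where the difference between sets passed an adjusted p of 0.05, the clearest of these are named, and the dashed line marks equal values; Dntt (0.82 on LC, -0.37 on LCE plates) lies below it.

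Because Sca1 went with other sorted proteins, plates were also split at the medians of Sca1 and of a second protein, and both effects were fitted together. Adjusted for CD135, 790 of 9691 genes were called for Sca1 (8.15%), for Dach1-GFP 1086 of 10232 (10.6%), for CD150 836 of 9940 (8.41%) and for cKit 1062 of 10248 (10.4%). Higher and lower calls for Sca1 were 3.98% and 4.17% of tested genes adjusted for CD135, 5.34% and 5.28% for Dach1-GFP, 4.12% and 4.29% for CD150 and 4.83% and 5.53% for cKit. Stem cell genes were called for Sca1 in each of these fits: 18 of 22 tested members were called higher adjusted for CD135, 18 of 23 for Dach1-GFP, 16 of 22 for CD150 and 19 of 23 for cKit. In the same fits CD135 itself went the other way on this list, with 1 member higher and 12 lower in CD135-high cells, against 4.39% and 3.77% of all tested genes (8.15% together). Hlf had a Sca1 effect of 0.97 and a CD135 effect of -0.11 (edgeR adjusted p = 3.5e-25 and 0.23). Interferon-stimulated genes had 11 to 14 members called higher for Sca1 over the 4 fits and none lower. Lymphoid priming genes divided more evenly once CD135 was in the fit, with 7 of 23 higher and 4 lower for Sca1 and a median of 0.04, against 18 higher and 1 lower for CD135 and a median of 0.62. Flt3 was 0.27 for Sca1 and 1.48 for CD135. Erythroid genes had a median of -0.11 for Sca1 and -0.81 for CD135.

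The size of the Sca1 effect depended on the second protein for few genes: 10 with CD135 (0.103% of those tested), 30 with Dach1-GFP (0.293%), 4 with CD150 (0.0402%) and 33 with cKit (0.322%). With cKit, 27 of the 33 (0.263% of tested genes) had the more negative Sca1 effect among cKit-low cells, 7 of them from the list of G2 and mitosis and 10 Hist1h2a genes, replication-dependent histones whose near-identical copies could share counts. Among cells below the plate median of cKit, the 29 genes of G2 and mitosis had a median Sca1 effect of -0.42, and among cells above it one of 0.09. Hmgb2 had a Sca1 effect of 0.02 in cKit-high and -0.79 in cKit-low cells (edgeR adjusted p of the interaction 8.3e-08). With Dach1-GFP, Cd74 had a Sca1 effect of 1.04 in GFP-high and -0.79 in GFP-low cells (1.2e-06), and Ebf1 one of 0.00 in GFP-high and -2.22 in GFP-low cells (0.0014), where most B lineage transcripts lay: all 12 tested members of that list were called lower in GFP-high cells, against 3.55% of all tested genes. With CD135, Irf8 had a Sca1 effect of -1.34 in CD135-high and -0.36 in CD135-low cells (0.0012), and Car1 one of 0.19 in CD135-high and -2.25 in CD135-low cells (9.6e-09). Ly6a had nearly the same Sca1 effect on both sides of every split: it was lowest among cKit-low cells (1.41), and it was 1.46 among CD135-high and 1.53 among CD150-low cells.

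Without correction 573 genes were called higher and 639 lower (5.64% and 6.29% of tested genes). Sca1 corrected for the ranks of CD135, Dach1-GFP, CD150 and cKit together still called 711 genes, 352 higher and 359 lower. Of these, 633 were among the 1212 in the same direction, and 3 were called in the opposite one. On that scale 17 of 22 stem cell genes were higher and 0 lower (median 0.63), 12 of 29 interferon-stimulated genes higher and 0 lower (median 0.36), and the lymphoid priming, granulocyte and monocyte and erythroid medians were 0.11, -0.29 and -0.20.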

How the data were processed

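CEL-seq2 libraries of index-sorted LSK cells on 8 plates were used, with the sort record of each cell. The authors deposited whole-number counts per gene and well. Neither the labels nor the file headers say whether these are reads or molecules, or name the aligner and counter; the submitters' processing notes name the build GRCh 38, while the gene identifiers are mouse Ensembl identifiers, of which 27249 of 27318 were named. Per the file headers, the deposited sort records give fluorescence intensity per cell on a linear scale, and some values lie below 0, as after a subtraction of background. All plates share the same 383 wells, so a cell is identified by plate and well. Of 3064 wells, 2987 joined a sort record, and 2715 with at least 1000 counts and 500 genes were kept. 13 sort records had no barcode.

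Counts were summed per plate and Sca1 tercile, and both groups of a plate enter as a pair by design; their deviations from the group means correlated at 0.348 to 0.746 within plate sets (2729 genes). Tests used edgeR 4.0.16 in R 4.3.3 (quasi-likelihood, filterByExpr, TMM, plate as block), with p-values adjusted by Benjamini-Hochberg across every gene tested and called under 0.05. The procedure was tested on simulated data. Single measures used exact two-sided sign-flip tests over plates (Python 3.11.15), with 1 CPM added before the log2 ratio of Ly6a. Spike-ins took 3.27% to 4.36% of counts on LC plates and were left out. DESeq2 1.42.0, other scalings, filters and cell selections were alternatives.

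Named genes are those of the sorted proteins, up to 12 higher and 12 lower by size with the same sign on 8 plates and at least 10 CPM, and up to 4 of each list by adjusted p. The genes Dntt, Ighm, Jchain, Igkc, Hoxa9, Meis1, Car1, Mki67, Cd34, Irf7, Mycn, Crip1, Stmn1, Mn1, Sdc1, Ctla2a, Mecom, Procr, Nkx2-3, Mllt3, Rtp4, Ifi203, Trim30a, Irgm2, Elane, Cebpa, Apoe, Kif23 and Satb1 were also named, after their values were seen where the rule did not take them. The members and the gene lists were chosen with earlier results of these data known. Genes with near-identical copies (Ifitm, Tgtp, class I heavy chains, H2A histones, immunoglobulin segments, Gm8292) could share counts and are uncertain. Some genes that the rule or the lists take are not reported here.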

Additional observations from a re-analysis of the deposited data

Results flagged for a closer look

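In 176 checks of 8 or 4 plates, 17 had 1 plate far from the others, where chance gives about 1 in 20. For the sorter measures these were the CD150 difference of replicate 4 (1.47 percentage points, others -33.2 to -16.8) and the cKit difference of replicate 7 (-3.72, others -18.8 to -12.4). Replicate 7 also stood apart, as log2 ratios of Sca1-high over Sca1-low cells, for the megakaryocyte list median (0.42), Dach1 (0.51), Mpo (-1.93), Ms4a3 (-3.15), Slc40a1 (-4.31) and Tcf4 (-0.21). Other plates that stood apart were replicate 8 for Car1 (0.00, with no count in either group) and H2-Eb1 (1.63), replicate 4 for Crispld1 (3.44), replicate 3 for Ddx4 (3.13) and replicate 6 for Fcgr3 (3.41) and Hmgb2 (-0.85). Replicate 2 did so for Fos (1.68) and Irgm2 (1.82), and replicate 5 for Ifitm3 (0.14, others 0.57 to 0.87).

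The Sca1 difference was smaller or more negative on LCE than on LC plates by an edgeR interaction test for Hlf (-0.57), Flt3 (-0.55), Msi2 (-0.43), Dntt (-1.19), Ighm (-1.08), Mn1 (-2.06), Ctla2a (-0.80), Crip1 (-0.81), Cxxc5 (-0.73), Gm8292 (-0.40), Stmn1 (-0.38) and Adgrg1 (-0.34). It was more positive on LCE plates for Il1rl1 (2.93), Lmo4 (0.66) and Prtn3 (0.44). Ighm was 1364 and 1336 CPM in Sca1-high cells of replicates 2 and 4, against 369 and 388 CPM in Sca1-low cells. On replicates 1 and 3 it was 139 and 130 CPM, against 124 and 154 CPM. Sca1-high cells of replicates 2 and 4 each included 1 cell rich in Jchain, as did those of replicates 5 and 6. The difference of Ighm between sets was not tested without these cells.

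The Sca1 effect differed between cells above and below the plate median of a second protein, by the edgeR interaction, given as above minus below. With CD135 these were Car1 (2.44), Irf8 (-0.98), Jchain (-2.78), Igkc (-2.04) and Ighm (-1.51). With Dach1-GFP they were Vpreb3 (2.09), Ebf1 (2.22), Cd74 (1.82), H2-Aa (1.49), H2-Eb1 (1.34), Car1 (1.68), Cpox (1.14), Mllt3 (0.98), Cpa3 (-1.29), Jchain (-2.99) and Gm8292 (-0.29). With CD150 they were Pf4 (-2.15), Elane (-0.95) and Prtn3 (-0.60), and with cKit Hmgb2 (0.81), Cks2 (0.82) and Ifitm1 (-0.39). Jchain, Igkc and Pf4 rest on few cells, as 1 cell held 29.2%, 25.4% and 32.4% of their counts. The call of Ighm over all plates was lost without 4 cells rich in Jchain, and its interaction with CD135 was not tested without them.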

How the results depend on the processing

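The main comparison called 1212 genes with plate as a block and 19 with no replicate block. It called 444 with DESeq2, 272 on LCE plates alone, 212 with cells thinned to 3000 counts, 711 with Sca1 corrected for 4 proteins and 239 with Sca1 corrected for scatter on LCE plates. Of the 212 and the 19, 195 and 19 were called in the same direction in the main comparison. Without a filter on low counts 38.5% of calls were higher, against 47.3% in the main comparison. Leaving out 1 plate gave 906 to 1265 calls, and the ranges were 512 to 607 on LC plates, 101 to 280 on LCE plates, 3 to 18 for the difference between sets, 173 to 347 for highest against middle and 28 to 69 for middle against lowest tercile.

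Adjusted for CD135, LC plates alone called 346 and LCE plates 179 genes, for Dach1-GFP 637 and 214, and for cKit 629 and 185, while adjusted for CD150 LCE plates called 131. Interactions numbered 6 on LC and 26 on LCE plates with CD135, 19 and 53 with cKit, 8 on LC plates with CD150 and 17 on LCE plates with Dach1-GFP. Leaving out 1 plate gave 526 to 691 calls adjusted for CD135 and 543 to 808 for CD150, and 7 to 20 interactions with CD135, 19 to 35 with Dach1-GFP, 0 to 6 with CD150 and 21 to 34 with cKit. At 0, replicate 2 was left out.

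The Ly6a ratio was 2.24 on LC and 1.71 on LCE plates, where 4 plates cannot give an exact p below 0.125. Split at the median, Dach1-GFP differed by -3.90 (exact adjusted p = 0.0143) and CD16/32 by 0.189 in place of -2.05. Without 1 plate CD150 differed by -25.1 to -20.1, CD16/32 by -4.62 to 0.999, and Dach1-GFP by -6.80 to -3.74. List medians that moved were interferon-stimulated (0.31 on LCE plates, 0.25 corrected for scatter), interferon gamma (0.18 corrected for scatter), lymphoid priming (0.11), granulocyte and monocyte (-0.29) and erythroid (-0.20) corrected for 4 proteins. Thinning turned the erythroid median to 0.11 and the endothelial one to -0.19, and leaving out B lineage cells, which the list's own genes define, turned the B lineage median to 0.39, with fewer genes tested in each. Without 1 plate the erythroid median was -1.07 to -0.27 and the plasma cell median -0.00320 to 1.37.

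Single genes changed sign on LCE plates alone or with scatter corrected: Adgrg1 (-0.0303 and -0.0300), Crip1 (-0.37 in both), Dntt (-0.36 and -0.29) and Lmo4 (0.16 and 0.13). Corrected for 4 proteins, Cd55 (0.0116), Cd74 (0.80), H2-Aa (0.53), H2-Ab1 (0.17), H2-Eb1 (0.20) and Satb1 (-0.11) changed sign, with Cd74 and H2-Aa called higher, and Igkc was -0.34 without Jchain-rich cells, an alternative chosen after seeing the data. The cause was not tested. Depth limits genes of few counts, most of all on LCE plates.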
